A study of Equus caballus with 4 samples.

Results

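Collagen chains are the genes named col, a type number, the letter a and a chain number, and they were taken from the horse array as every noncontrol probe whose symbol has that form. This gave 38 genes with 112 probes, out of 14450 genes with a symbol and 43603 probes. Satellite cells, the stem cells of skeletal muscle, had been isolated from equine *m. semitendinosus* and were brought into differentiation by a change to low-serum medium. On the third day of differentiation GO-treated cells had been incubated for 24 h with 125 nM gamma-oryzanol (GO), a mixture of ferulic acid esters of plant sterols from rice bran, in DMSO, and control cells with the same 0.04 μl/ml DMSO alone. Both groups had grown on plates coated with collagen I, so control cells also met that protein from outside. The labels call the samples 4 biological replicates, and whether these were different horses or separate cultures of the chosen cell line is not given in the sources used here. If they were cultures of 1 line, the p-values measure the spread between cultures only. On each of 4 two-color arrays RNA of GO-treated cells carried Cy5 and RNA of control cells Cy3, with no swap, so that differences between the dyes and effects of GO cannot be told apart.

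A collagen molecule is a triple helix of 3 chains, in which glycine recurs in every Gly-X-Y unit because no larger residue has room at the center of the helix. Fibrillar chains (types I, II, III, V, XI, XXIV and XXVII) are made with propeptides at both ends. The C-propeptide starts the assembly of the trimer and, like the N-propeptide, is cut off before fibrils form. Type IV chains form the network of basement membranes, the sheet that surrounds each muscle fiber and covers its satellite cells. The remaining chains form beaded filaments (type VI), hexagonal networks (types VIII and X), molecules on the surface of fibrils (the FACIT chains, such as types IX and XII) and transmembrane collagens (such as types XIII and XVII). In muscle, fibroblasts make most of the interstitial collagen, and type VI collagen made by them belongs to the niche of satellite cells.

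The probes are 60 bases long and their sequences carry the marks of the family. Printed first are a *col1a2* and a *col11a1* probe at the end of the coding sequence of a fibrillar chain, since their levels are given below. Capitals mark TTGGNCCNGTNTGTTTT, the 17 bases at the end of the C-propeptide in which this pair has most letters in common, with N where they differ. It was defined on these probes, and a search of both strands found it in them alone, 2 of the 43603 probes (0.00459%), and in 0 on the other strand.
col1a2, C-propeptide end: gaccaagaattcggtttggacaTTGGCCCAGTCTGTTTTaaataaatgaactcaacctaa
col11a1, C-propeptide end: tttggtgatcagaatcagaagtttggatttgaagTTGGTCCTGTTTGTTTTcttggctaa

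Gly-X-Y repeats were read by the next probes, where capitals mark the glycine codons (GGN at each Gly-X-Y unit). Their label, triple helix, names the repeat and not a place in the mature molecule. The *col2a1* probe starts at base 216 of its transcript, on the side of the N-propeptide, and was not shown to lie in the main helix. At least 6 such codons in register, over the whole probe, were found in 3 of the 43603 probes (0.00688%) in the printed direction and in 0 on the other strand. All of these carried a collagen symbol, and the remaining one, of *col25a1*, was not tested.
col11a1, triple helix: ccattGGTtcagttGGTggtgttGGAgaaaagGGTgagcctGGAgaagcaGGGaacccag
col2a1, triple helix: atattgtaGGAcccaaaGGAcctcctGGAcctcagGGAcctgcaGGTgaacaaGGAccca

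The last probes are those of the genes past the thresholds outside the fibrillar class, and an upstream *col3a1* probe, all in lower case since no motif was marked in them.
col8a2: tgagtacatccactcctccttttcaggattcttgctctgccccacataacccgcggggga
col6a2, upstream: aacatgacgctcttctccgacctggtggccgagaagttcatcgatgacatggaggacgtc
col6a2, downstream: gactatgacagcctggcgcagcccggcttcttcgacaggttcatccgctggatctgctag
col3a1, upstream: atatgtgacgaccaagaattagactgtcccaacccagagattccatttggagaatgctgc

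Tests were limited to probes that Feature Extraction marked as well above background in 1 channel on all 4 arrays, which 63 collagen probes of 19 genes met. The value of a gene is the log2 ratio of GO-treated to control cells at its brightest probe, and a ratio above 0 means a higher signal in GO-treated cells. Both thresholds are passed where the adjusted p is no more than 0.05 (limma, Benjamini-Hochberg adjustment over 26834 probes) and the fold no less than 1.3, that is, a log2 ratio of 0.38 or more in either direction. Over all genes tested, 820 of 9393 (8.73%) were past both thresholds, 3.33% higher and 5.4% lower. Of the 19 collagen genes 3 were (15.8%), *col11a1* and *col8a2* lower and *col6a2* higher. The median log2 ratio was -0.10 over the 19 collagen genes and 0.00 over all genes tested, and 12 of the 19 lay below 0. Of the 63 collagen probes 11 passed, 10 of them lower, beside 8.94% of all probes (5.61% lower). Of the 10 lower probes 6 were dim, overlapping probes of *col13a1*, a gene that did not pass at its brightest probe. The filter admitted these 6 only through the control channel, in which they were higher, so a lower ratio was favored from the start. Where both channels had to be well above background, 1 *col13a1* probe was tested and it did not pass. After normexp and loess, or with no filter on dim probes, 0 of the *col13a1* probes passed.

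**Figure D1:**
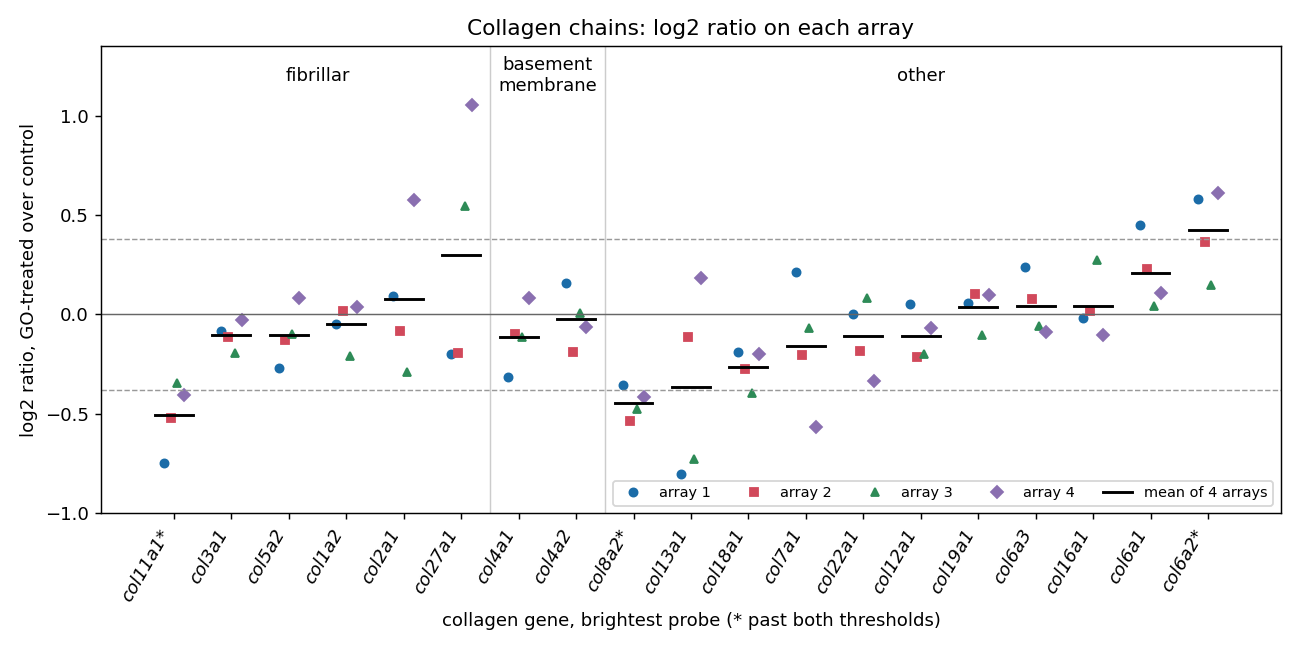
The vertical axis is the log2 ratio of GO-treated to control cells at the brightest probe, and each symbol is 1 of 4 arrays, with a bar at their mean. Dashed lines mark a log2 ratio of 0.38 in either direction. The 19 genes tested are grouped by class, an asterisk marks the 3 past both thresholds, and all arrays of *col11a1* and *col8a2* lie below 0 and all arrays of *col6a2* above it.

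The other 19 collagen genes were not tested. These were *col10a1*, *col11a2*, *col14a1*, *col17a1*, *col21a1*, *col23a1*, *col24a1*, *col25a1*, *col26a1*, *col28a1*, *col4a3*, *col4a4*, *col4a5*, *col4a6*, *col6a5*, *col6a6*, *col9a1*, *col9a2* and *col9a3*. Their brightest probes were well above background on 0 to 3 arrays in the control channel and on 0 to 2 arrays in the GO channel. They include the cartilage chains of types IX and X, the epidermal type XVII and the type IV chains other than alpha 1 and alpha 2. The RefSeq annotation of the TB-T2T assembly lists 44 collagen genes, of which all 38 measured here are part. A further 5 (*col1a1*, *col5a1*, *col5a3*, *col8a1* and *col15a1*) had probes that carry only a description, and *col20a1* had none that was found. These 5 are in none of the counts of collagen genes or probes given here.

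*Col11a1* encodes a chain of type XI collagen, which lies inside fibrils and sets their diameter, mainly in cartilage but also in other mesenchyme. Its C-propeptide probe lies at chr5:36772213-36772272 of EquCab1, plus strand. The processed signal on arrays 1 to 4 was 2975, 2318, 1748 and 1879 in control cells and 1773, 1615, 1375 and 1420 in GO-treated cells. GO-treated cells were lower on every array, whereas the ranges of the groups overlapped between arrays. The log2 ratios were -0.75, -0.52, -0.35 and -0.40, a mean of -0.50 ± 0.18 (SD, n = 4), or 1.42-fold lower (adjusted p = 0.0112, limma). The probe next to it, which starts at base 5281 of the transcript against 5358, had a log2 ratio of -0.37 ± 0.16 (adjusted p = 0.0231, limma), just under the fold asked for. The triple-helix probe was lower on all arrays too, but with ratios of -1.20, -0.57, -0.17 and -2.62 its spread was wide and the adjusted p was 0.0756 (limma). Without array 2 the adjusted p of the C-propeptide probe was 0.0547 (limma), at a log2 ratio of -0.50.

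*Col8a2* encodes a chain of type VIII collagen, a short network-forming collagen of vessel walls and of Descemet's membrane in the eye. Its only probe lies at chr2:19665472-19665531, plus strand. Signals on arrays 1 to 4 were 551, 742, 566 and 435 in control cells and 431, 512, 407 and 326 in GO-treated cells, lower in GO-treated cells on every array but with ranges that overlapped between arrays. The log2 ratios of -0.35, -0.54, -0.47 and -0.42 gave a mean of -0.44 ± 0.08 (SD, n = 4), or 1.36-fold lower (adjusted p = 0.00676, limma). The gene passed both thresholds without each array in turn.

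The partner chain *col8a1* was found through the description of a probe at chr19:51526273-51526332, minus strand, after its values had been seen. Control signals were 2592, 2624, 2934 and 2329, and those of GO-treated cells 1828, 1936, 1655 and 1563, which lay below all control signals. The log2 ratios of -0.50, -0.44, -0.83 and -0.58 averaged -0.59 ± 0.17 (SD, n = 4), or 1.50-fold lower (adjusted p = 0.00676, limma). *Col8a1* was also past both thresholds without each array in turn. The log2 ratio of *col8a2* less that of *col8a1* was 0.14 ± 0.18 and changed sign between arrays (range -0.10 to 0.35, two-sided exact sign-flip p = 0.25, where 4 arrays cannot go below 0.13). Both chains of type VIII collagen were thus lower in GO-treated cells.

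Type VI collagen is built from alpha 1, alpha 2 and alpha 3 chains in equal number. *Col6a2*, the alpha 2 chain, had its brighter probe at chr26:655606-655665, minus strand. Control signals there were 338, 565, 615 and 373, and GO-treated cells had 505, 727, 681 and 569, higher on each array with ranges that overlapped between arrays. The log2 ratios were 0.58, 0.37, 0.15 and 0.61, a mean of 0.43 ± 0.21 (SD, n = 4), or 1.34-fold higher (adjusted p = 0.0251, limma). This call depended on single arrays: the adjusted p was 0.0674 without array 1, 0.0813 without array 2 and 0.0665 without array 4 (limma). After normexp and loess the log2 ratio of this probe was 0.33, under the fold, and the call was lost. The second *col6a2* probe, 648 bases downstream and ending in the stop codon, had ratios of 0.44, 0.12, -0.31 and -0.45, a mean of -0.05 ± 0.41. The mean of both probes, 0.19, did not pass (adjusted p = 0.233, limma).

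*Col6a1*, whose gene lies next to *col6a2* in the RefSeq annotation, was above 0 on all arrays with 0.45, 0.23, 0.04 and 0.11, a mean of 0.21 ± 0.18 (SD, n = 4; adjusted p = 0.119, limma). *Col6a3* had 0.24, 0.08, -0.06 and -0.09, a mean of 0.04 ± 0.15 (adjusted p = 0.724, limma). Within each array *col6a2* exceeded *col6a3* by 0.38 ± 0.22 and *col6a1* exceeded it by 0.17 ± 0.05. *Col6a1* lay below *col6a2* by 0.22 ± 0.19 on all 4 arrays. Each of these differences had the same sign on every array and an exact sign-flip p of 0.13 (two-sided), the smallest that 4 arrays allow. Those with *col6a2* hold for its brighter probe only. Its second probe, at 0.44, 0.12, -0.31 and -0.45, lay below *col6a1* on every array. Against *col6a3* the second probe was higher on arrays 1 and 2 and lower on arrays 3 and 4. Of *col6a5* and *col6a6*, chains that can take the place of alpha 3, neither was tested.

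The fibrillar class held 8 genes, of which 6 were tested and only *col11a1* was past both thresholds, lower. The median log2 ratio of its chains was -0.14, -0.12, -0.20 and 0.06 on arrays 1 to 4. The major fibrillar chains were near 0 in the deposited ratios. *Col1a2*, a chain of type I collagen, had -0.05, 0.02, -0.21 and 0.04, a mean of -0.05 ± 0.11 (SD, n = 4; adjusted p = 0.624, limma). *Col3a1*, the chain of type III collagen, had -0.08, -0.11, -0.20 and -0.03, a mean of -0.10 ± 0.07 (adjusted p = 0.245, limma). *Col5a2*, whose chain starts fibrils together with *col5a1*, had a mean of -0.10 ± 0.14 and *col5a1*, named by description, one of 0.10 ± 0.23 (adjusted p = 0.347 and 0.505, limma). *Col5a3*, a further type V chain named by description, had -0.11 ± 0.20 (adjusted p = 0.393, limma). *Col1a1*, also named by description, had 0.18, -0.32, -0.27 and -0.39 at its brighter probe, a mean of -0.20 ± 0.26 (adjusted p = 0.209, limma). *Col2a1* and *col27a1*, cartilage chains with dim probes, had means of 0.08 ± 0.37 and 0.30 ± 0.61. *Col2a1* was admitted to the test only through the control channel. *Col27a1* was admitted only through the GO channel, in which its mean was higher. Where both channels had to be well above background, which left out this pair, the fibrillar median was -0.10 against -0.08. No direction held over the fibrillar chains as a class.

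The type I and III values rested on how bright signals were scaled. The *col1a2* and *col3a1* probes had a mean log2 signal of 17.3 and 16.8, with 0.0186% and 0.35% of tested probes brighter. Without the lowess step, and with each array centered on its median, the log2 ratio was 0.99 for *col1a2*, 0.82 for *col3a1*, 0.32 for *col1a1* and 0.34 for *col5a2*, against values below 0 with it. The first pair then passed both thresholds as higher (adjusted p = 0.000576 and 0.00099, limma). After normexp background correction and loess, *col1a2* was 0.40 (past both thresholds) and *col3a1* 0.26. This turn was not particular to collagens: of the 1379 tested probes with a mean log2 signal of at least 14, 93.4% were above 0 without lowess, with a median of 0.43 against -0.05 in the deposited ratios. Which direction type I and III transcripts took cannot be told from these arrays.

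**Figure D2:**
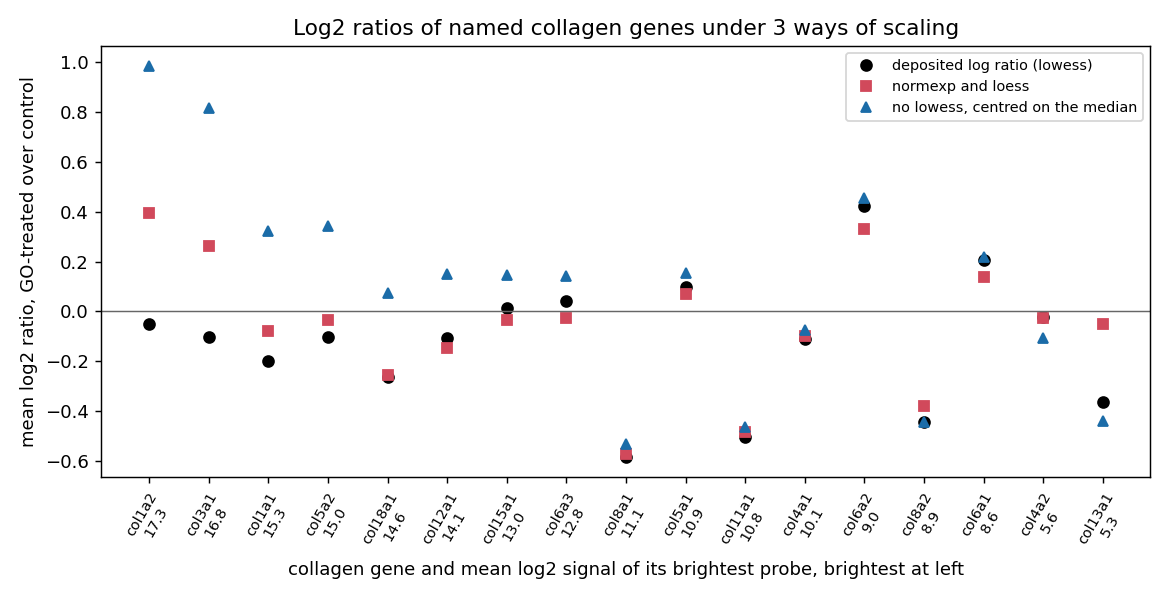
The vertical axis is the mean log2 ratio over 4 arrays for named collagen genes, ordered from the brightest probe at the left, with the probe's mean log2 signal under each name. Circles are the deposited ratios, squares normexp with loess, and triangles ratios without lowess, and *col1a2* runs from -0.05 to 0.99 while *col8a1*, *col8a2* and *col11a1* stay below 0 under all of them.

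Probes of 1 gene did not all give its brightest probe's value. Of the 9 *col1a2* probes tested, those starting at bases 3961 and 3981 of their transcript had log2 ratios of -0.42 ± 0.07 and -0.38 ± 0.05 and were past both thresholds (adjusted p = 0.00727 and 0.0085, limma). The other 7 lay between -0.23 and -0.05 and did not pass. Without lowess 4 of the 9 passed, all as higher. The 5 overlapping *col3a1* probes near the 5′ end, which share most of their bases, had 0.32 to 0.37, and those at the 3′ end -0.18 and -0.10.

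Where the farthest upstream and farthest downstream tested probes of a gene were compared within each array, the upstream one was higher on all arrays in *col3a1* (by 0.44 ± 0.19), *col6a2* (0.47 ± 0.41), *col12a1* (0.34 ± 0.15) and *col1a1* (0.52 ± 0.47). Each had an exact sign-flip p of 0.13 (two-sided), the smallest 4 arrays allow. In *col1a2*, *col4a1*, *col5a2* and *col11a1* the sign differed between arrays. Over the 160 transcripts of the array with tested probes at least 1000 bases apart, the median of this difference was 0.00 and its quartiles -0.16 and 0.15. Of the genes with a higher upstream probe on all arrays only *col12a1* meets that rule. The *col6a2* probes are 648 bases apart, and those of *col3a1* and *col1a1* are not on the same transcript. Without lowess the difference was -0.43 in *col3a1*, 0.05 in *col1a1* and 0.13 in *col12a1*, whereas in *col6a2* it was 0.51. The upstream and downstream probes of *col3a1*, *col1a1*, *col1a2* and *col5a2* are listed on different transcripts of the gene, so their starts are not on the same scale.

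**Figure D3:**
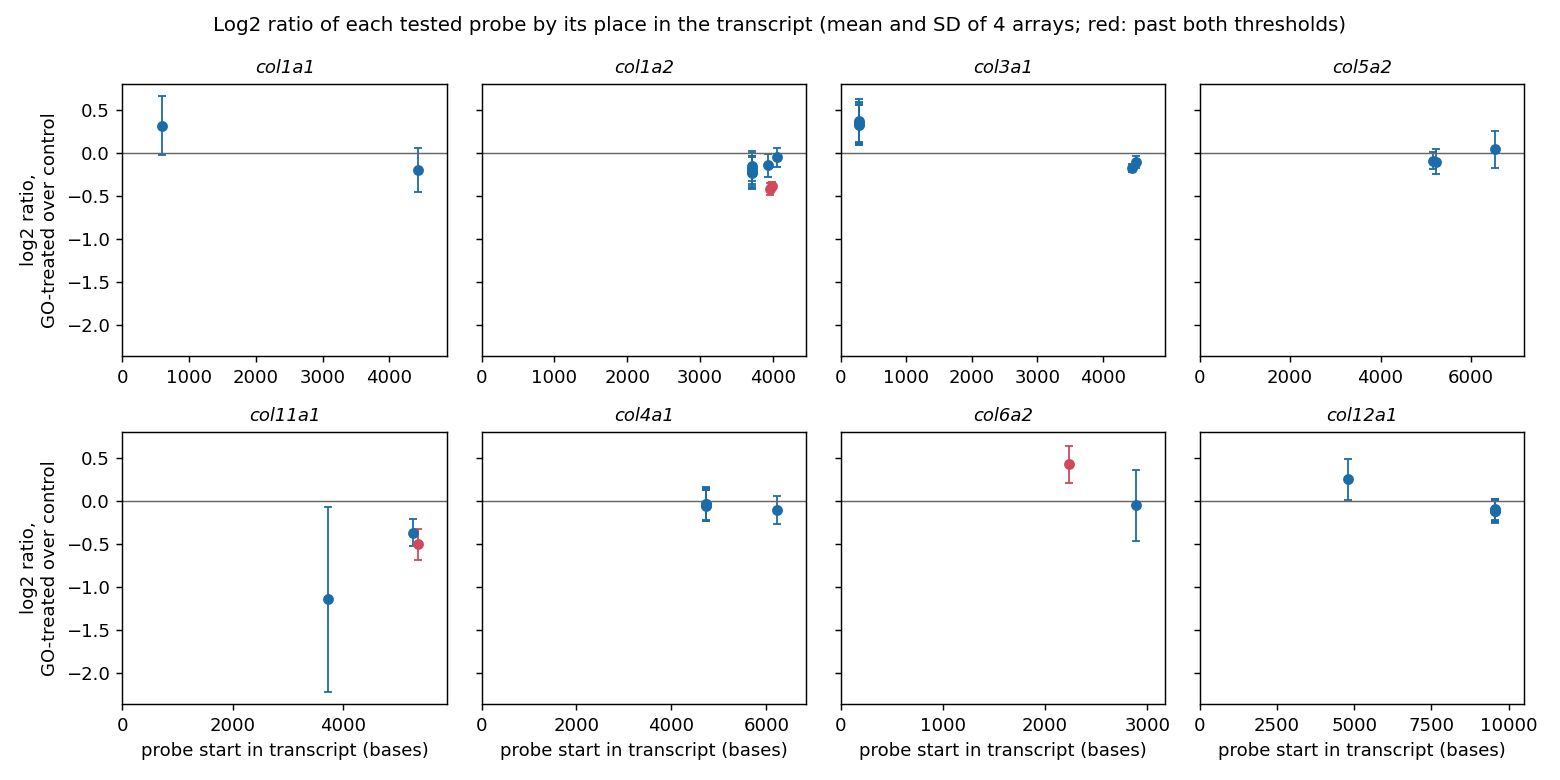
Each panel is a gene, the horizontal axis is the first base of the probe counted from the start of its listed transcript, and the vertical axis the log2 ratio of GO-treated to control cells as mean and SD of 4 arrays. Probes past both thresholds are red: 2 of *col1a2*, 1 of *col11a1* and 1 of *col6a2*, and the wide bar in *col11a1* is the triple-helix probe at -1.14 ± 1.07.

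Of the type IV chains, which form basement membrane networks, the tested genes were *col4a1* and *col4a2*, neighbors in the RefSeq annotation whose products assemble with each other. Neither passed. *Col4a1* had -0.31, -0.10, -0.12 and 0.08, a mean of -0.11 ± 0.16 (SD, n = 4; adjusted p = 0.342, limma), and its 6 probes lay between -0.11 and -0.04. Most of these probes overlap, with starts at bases 4733 to 4737. *Col4a2* had 0.16, -0.19, 0.01 and -0.06, a mean of -0.02 ± 0.14 (adjusted p = 0.852, limma). Both had arrays on either side of 0. The class median over these 2 genes was -0.08, -0.14, -0.05 and 0.01 on arrays 1 to 4. With *col7a1* and *col18a1* added, whose proteins also lie at basement membranes, the median was -0.13 against -0.07.

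*Col18a1*, a basement membrane collagen whose C-terminal fragment is endostatin, was below 0 on all arrays with -0.19, -0.27, -0.40 and -0.20. Its mean of -0.27 ± 0.10 (SD, n = 4) passed the adjusted p (0.0332, limma) but not the fold, and its 6 probes lay between -0.29 and -0.20. Most of these probes overlap, with starts at bases 3475 to 3479, and share nearly all their bases. Without lowess *col18a1* was 0.07. *Col15a1*, a related chain of the outer basement membrane of muscle, named by description, had 0.01 ± 0.04 (adjusted p = 0.891, limma). The value of *col7a1*, the anchoring fibril chain, was -0.16 ± 0.32 (adjusted p = 0.396, limma).

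The other chains were 24 genes, of which 11 were tested and 2 passed, *col8a2* and *col6a2*, in opposite directions. *Col12a1*, a FACIT chain that decorates type I fibrils, had 0.05, -0.21, -0.20 and -0.07, a mean of -0.11 ± 0.12 (SD, n = 4; adjusted p = 0.302, limma), and 0.15 without lowess. The other FACIT genes tested were *col16a1*, *col19a1* and *col22a1*, between -0.11 and 0.04, with none passing. *Col22a1*, which marks muscle-tendon junctions, had -0.11 ± 0.19.

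*Col13a1*, a transmembrane collagen of adhesion sites and the neuromuscular junction, did not pass at its brightest probe (-0.80, -0.11, -0.73 and 0.19, a mean of -0.36 ± 0.48, adjusted p = 0.177, limma). Of its 10 probes, which form 2 groups of overlapping sequences, 6 were past both thresholds, all lower, and all 10 had a mean between -0.67 and -0.19. These probes were dim. They were well above background on all 4 arrays in control cells but on 1 to 4 arrays in GO-treated cells. All but 1 of them were thus admitted to the test through the control channel alone. After normexp and loess 0 of the 10 passed and their means lay between -0.17 and -0.04.

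Compared by class, the median log2 ratio averaged -0.10 ± 0.11 (SD over 4 arrays) for fibrillar, -0.07 ± 0.06 for basement membrane and -0.06 ± 0.07 for other chains, beside 0.00 ± 0.02 for all genes tested. Fibrillar less basement membrane was -0.06, 0.02, -0.15 and 0.05 on arrays 1 to 4. Fibrillar less other was -0.19, -0.01, -0.13 and 0.15, and other less basement membrane was 0.13, 0.03, -0.02 and -0.10. All 3 differences changed sign between arrays, so the classes were not separated by more than the spread of the arrays.

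**Figure D4:**
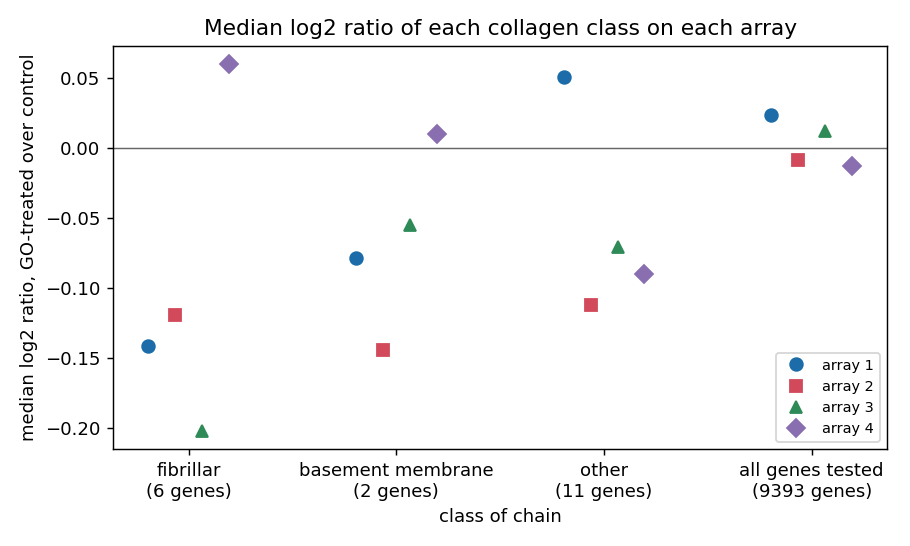
The vertical axis is the median log2 ratio of GO-treated to control cells over the genes of a class, with 1 symbol per array. The 3 collagen classes range from -0.20 to 0.06 and overlap each other, and all genes tested lie between -0.01 and 0.02.

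Genes that modify, cut, crosslink, bind or sense collagen were a list of 47, of which 33 were tested and 6 passed, 2 higher and 4 lower, beside 8.73% of all genes (3.33% higher and 5.4% lower). Where both channels had to be well above background 5 passed, and *adamts14*, among the lower genes, was then not tested. The median of the list was 0.05, and that of all genes 0.00. Of the 12 tested genes of chain modification and folding 0 passed, and 2 had an unadjusted p under 0.05 (limma). These include some of the prolyl hydroxylases, the lysyl hydroxylases and the collagen chaperone *serpinh1*, which had a log2 ratio of 0.14 (adjusted p = 0.287, limma). Of the 17 genes listed in this group 13 had a probe, and for *p4ha1*, *p4ha2*, *leprel2* and *crtap* none was found. At an adjusted p alone, *lepre1*, a prolyl 3-hydroxylase, passed with 0.28 (0.0263, limma). *Mia3*, which is needed to load collagen into transport vesicles, had 0.24 (adjusted p = 0.102, limma).

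Among genes of propeptide removal, the N-propeptidase *adamts3* was higher and the related *adamts14* lower. *Adamts3* had log2 ratios of 0.32, 0.17, 0.65 and 0.41, a mean of 0.39 ± 0.20 (SD, n = 4; adjusted p = 0.0297, limma). It lost the call without any 1 of the arrays, at an adjusted p between 0.0525 and 0.0898, and was under the fold after normexp and loess (0.25), without lowess (0.37), with array weights (0.36) and as the mean over its probes (0.37). *Adamts14* had -0.32, -0.45, -0.25 and -0.61, a mean of -0.41 ± 0.16 (adjusted p = 0.0172, limma), with the GO channel well above background on 2 arrays. It was thus tested only through the control channel, in which it was higher, and not where both channels had to be well above background. It was -0.39 (adjusted p = 0.0772) without array 2 and -0.34, under the fold, without array 4, and -0.15 (adjusted p = 0.0944, limma) after normexp and loess. *Bmp1*, the C-propeptidase, had 0.05 (adjusted p = 0.761, limma), and for *adamts2* no probe was found.

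*Loxl1*, a lysyl oxidase that starts the crosslinking of elastin and collagen, was lower with -0.37, -0.47, -0.66 and -0.63, a mean of -0.53 ± 0.14 (SD, n = 4; adjusted p = 0.00663, limma). All 5 of its probes passed, and all 5 passed without each array in turn. Without lowess its brightest probe was at -0.22 and did not pass. *Loxl2*, *loxl3* and *loxl4* did not pass, at -0.27, 0.19 and 0.17, and for *lox* itself no probe was found.

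*Sparc*, a collagen-binding protein of the matrix, had -0.45, -0.41, -0.45 and -0.24, a mean of -0.39 ± 0.10 (SD, n = 4; adjusted p = 0.0119, limma), with 4 of 8 probes passing as lower. Its brightest probe is among the brightest on the array, and the ratio of that probe was 0.00 after normexp and loess and 0.57 without lowess. Of the 8 probes, 5 passed as lower after normexp and loess, whereas without lowess 3 passed as higher. The *sparc* value thus depended on both the probe and the scaling. At its brightest probe *sparc* also lost the call without array 1 (-0.37, under the fold), array 2 (adjusted p = 0.0624) or array 3 (0.0544). At their brightest probes the proteoglycans *dcn*, *lum*, *fmod* and *bgn* did not pass both thresholds, at 0.04, 0.08, -0.30 and -0.02. Of the 2 *dcn* probes, however, the dimmer passed as higher, at 0.42. *Fmod* passed the adjusted p (0.0231, limma) but not the fold, and its tested probes ran from -0.30 to 0.21.

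Of the collagen receptors, the integrin chain *itga11*, which with beta 1 binds fibrillar collagen, was higher with 0.39, 0.11, 0.61 and 0.91, a mean of 0.50 ± 0.34 (SD, n = 4; adjusted p = 0.039, limma). It lost the call without array 1, 3 or 4, at an adjusted p of 0.078, 0.122 and 0.0759 (limma). With array weights the adjusted p was 0.0558 and with no filter on dim probes 0.170 (limma). Its log2 ratio was 0.15 after normexp and loess. The only *itga11* probe was dim, with signals of 22, 32, 24 and 18 in control cells and 29, 34, 36 and 34 in GO-treated cells. The receptor tyrosine kinase *ddr1* was lower with -0.19, -0.47, -0.50 and -0.48, a mean of -0.41 ± 0.15 (adjusted p = 0.0155, limma), and lost the call without array 2 (0.0733) or array 3 (0.0649) and, just under the fold at -0.38, after normexp and loess. *Ddr2*, the receptor for fibrillar collagen in mesenchymal cells, had 0.31 and *itgb1* -0.31 (adjusted p = 0.0900 and 0.0541, limma). The receptor genes moved in both directions.

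**Figure D5:**
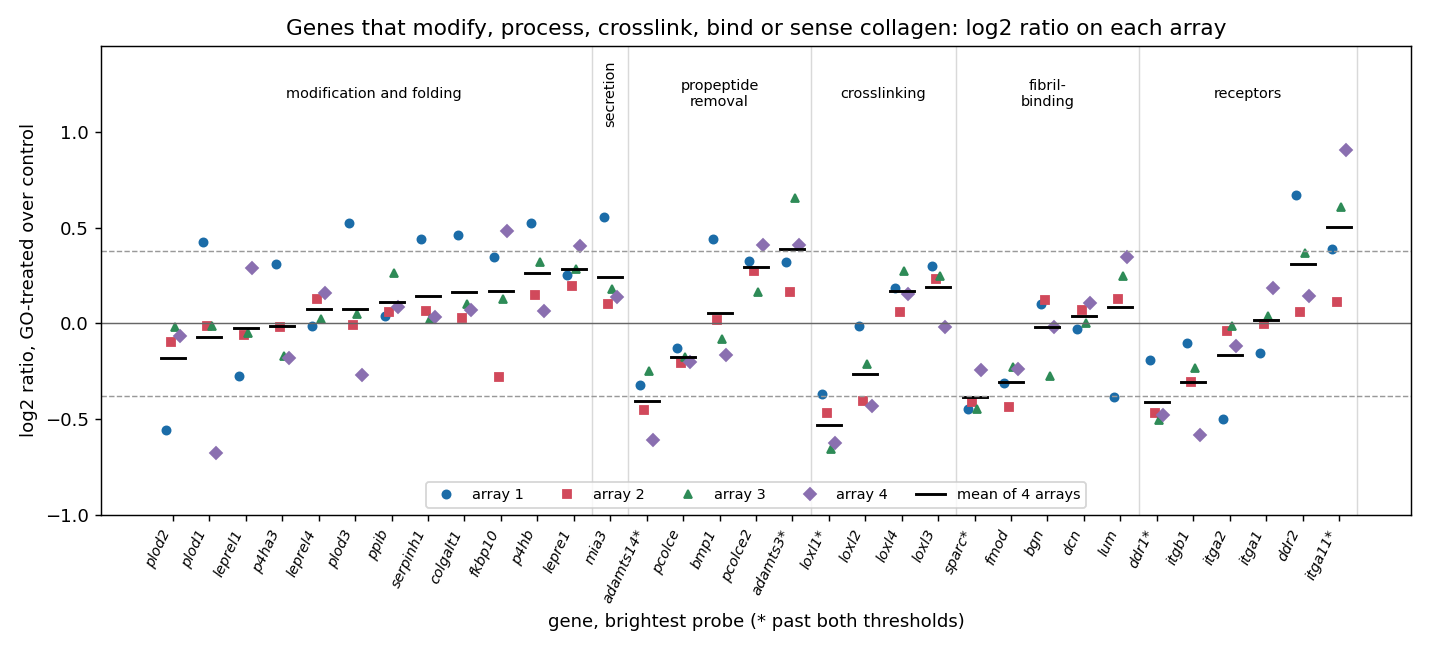
The vertical axis is the log2 ratio of GO-treated to control cells at the brightest probe of each of the 33 tested genes, with 1 symbol per array, a bar at the mean and dashed lines at a log2 ratio of 0.38 in either direction. An asterisk marks the 6 genes past both thresholds: *adamts3* and *itga11* above 0, and *adamts14*, *loxl1*, *sparc* and *ddr1* below it.

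Markers of cell types moved in the same samples. All 5 satellite cell and myoblast markers with a probe were well enough detected to be tested, and 3 were lower, beside 5.4% of all genes: *myf5*, which marks committed myoblasts, at a log2 ratio of -0.93 ± 0.04, *des*, the intermediate filament protein of muscle, at -0.61 ± 0.24, and *myog*, which drives terminal differentiation, at -0.40 ± 0.11 (SD, n = 4; adjusted p = 0.00102, 0.0113 and 0.0123, limma). The mean log2 signal of these markers was 10.4 to 10.9 in control and 9.81 to 10.3 in GO-treated cells. Of 5 tested fibroblast and fibro-adipogenic markers 1 was higher, *pdgfra*, at 0.87 ± 0.48 (adjusted p = 0.0199, limma), beside 3.33% of all genes. This gene was dim, with signals of 31, 24, 46 and 22 in control cells and 43, 44, 69 and 64 in GO-treated cells. *Thy1* and *fbn1* were near 0, at 0.08 and 0.02, and did not pass. *S100a4* (0.33) and *fap* (0.24) passed the adjusted p (0.0272 and 0.0369, limma) but not the fold, and both were above 0 on all 4 arrays. The mean log2 signal over the 6 fibroblast and fibro-adipogenic markers with a probe, bright and dim together, was 10.2 to 10.69 in control and 10.8 to 10.9 in GO-treated cells. The 4 endothelial markers (*pecam1*, *cdh5*, *vwf* and *kdr*) and the 3 adipocyte markers with a probe were well above background on 0 arrays in both channels. Of the mural and smooth muscle markers 0 of 3 tested passed, of the leukocyte markers 0 of 2 and of the chondrocyte markers 0 of 1, with an unadjusted p under 0.05 for 0, 1 and 1 of them (limma). The part of these markers in the collagen values was not tested, and in such bulk RNA fewer cells of a type and less RNA per cell cannot be told apart.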

How the data were processed

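The authors scanned the arrays with Feature Extraction (version 10.10.1.1 per the file headers). The deposited log10 ratios are those of the Cy5 over the Cy3 signal of a spot, computed from background-subtracted and detrended signals that had been normalized by a linear and a lowess step. The deposited intensity values are the mean, background, background-subtracted and processed signals of each channel, and flags mark outlier spots and spots well above background.

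Ratios were converted to log2, control and outlier spots were left out, and spots of the 50 probes present more than once were averaged. The 4 ratios of a probe were tested against 0 (two-sided) with lmFit and eBayes of limma (version 3.58.1) in R (version 4.3.3; data.table version 1.17.8), with a prior SD of 0.144 and 3.60 prior and 3 residual degrees of freedom, after the procedure was tested on simulated data. The thresholds are those of the methods, which do not name the test. All arrays lay on 1 slide, which could not be tested as a batch. Between 57.4 and 68.9% of noncontrol spots were well above background per channel and array, 0 were saturated, and ratios of any 2 arrays correlated at 0.43 to 0.70 over 24604 probes. The number of arrays limits the precision. Probe positions were read from the files (EquCab1), and the RefSeq annotation of TB-T2T gave names and neighbors only. The genome and protein sequences were not used here, and probe sequences are given for a few members only.

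Named were all collagen and machinery genes past both thresholds and a set of major chains. *Col8a1*, *col13a1*, *col18a1* and the contrast of upstream with downstream probes were chosen after their values were seen, as were members of the lists named in passing. The members and lists were chosen with earlier results of these data known. The alternatives tried were normexp (offset 50) with loess, no lowess, centering, other filters on dim probes, a plain one-sample test, channels as 8 separate samples, array weights, each array left out, and the mean over a gene's probes.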

Additional observations from a re-analysis of the deposited data

Results flagged for a closer look

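Of 29 genes examined (the tested collagen genes, the major chains named by description and the machinery genes past both thresholds), 1 had an array that stood apart from the others. *Ddr1* had a log2 ratio of -0.19 on array 1, whereas arrays 2 to 4 lay between -0.50 and -0.47. The gap to the nearest array was 0.893 of the whole range of the 4 values. Chance alone gives such a gap in about 5% of groups of 4.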

How the results depend on the processing

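The count of 3 collagen genes past both thresholds was 5 without lowess (3 higher), 1 with no filter on dim probes (0 higher, 1 lower), and 0 with the plain one-sample test and 0 with the channels as separate samples, without the pairing by array (no replicate block). With the mean over probes 0 were higher. After normexp and loess the count stayed at 3, with *col1a2* in place of *col6a2* as the higher gene. Leaving out each array gave 1 to 3 collagen genes, 0 to 1 higher and 1 to 2 lower. The 6 machinery genes were 10 without lowess, 2 after normexp and loess, 2 with no filter and 5 with both channels well above background. They were 0 with the plain test and 2 with no replicate block, and 2 to 3 with 1 array left out. Over all genes the count of 820 was 375 after normexp and loess, 281 with no filter, 38 with the plain test (18.4% of them higher, against 38.2%), 247 with no replicate block (23.9% higher) and 500 to 805 with 1 array left out.

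The fibrillar median of -0.08 was 0.059 after normexp and loess and 0.25 without lowess. The median of other chains, -0.11, was 0.074 without lowess, 0.020 with no filter and -0.14 to -0.020 with 1 array left out, and that of type IV chains, -0.07, was -0.13 with *col7a1* and *col18a1* (*col15a1*, named by description, could not be added). Without lowess the sign turned for *col12a1* (0.15), *col18a1* (0.074), *col1a1* (0.32), *col1a2* (0.99), *col3a1* (0.82), *col5a2* (0.34) and *sparc* (0.57), and for the upstream less downstream difference of *col3a1* (-0.43). After normexp and loess it turned for *col15a1* (-0.035), *col1a2* (0.40), *col3a1* (0.26) and *col6a3* (-0.028), and with the mean over probes for *col3a1* (0.20). With 1 array left out it turned for *col15a1* (-0.0058 to 0.025, below 0 without array 4), *col1a2* (-0.079 to 0.0029, above 0 without array 3), *col4a2* (-0.082 to 0.033, above 0 without array 2), *col5a1* (-0.00011 to 0.18, below 0 without array 1) and *col6a3* (-0.024 to 0.086, below 0 without array 1). Beyond the lowess curve itself, the cause was not tested. *Col8a2* lost its call only with the plain test (adjusted p = 0.0614) and no replicate block (0.225), and *col8a1* only with the plain test (0.0849) and no filter (0.0548, limma). Dim probes, such as those of *col13a1*, limit what can be said of low transcripts.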
